A study of Homo sapiens with 12 samples.

Results

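The genes described here encode cytosolic heat shock proteins and their co-chaperones: the HSP70 chaperones HSPA1A and HSPA8, their relative HSPH1, the J-domain protein DNAJB1, the nucleotide exchange factor BAG3, the HSP90 chaperone HSP90AA1 with its partners FKBP4 and CHORDC1, and the small heat shock proteins HSPB1 and CRYAB. They were chosen by name, with earlier results of these data known, as 10 genes with every probe set that lists one of them. That gave 20 of the 22277 probe sets on the array. Of these, 14 list a single gene and cover 8 of the 10 genes. The other 6 list several genes: 3 are listed for HSPA1A together with HSPA1B, 1 of them for HSPA1L too, and 3 are listed for HSPA8 together with the small nucleolar RNA genes SNORD14C and SNORD14D. Those 6 are reported under all their listed genes and are not counted among the 8.

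The RNA came from RCC4, a long-established kidney cancer cell line of the clear cell type, without functional VHL. For 2 days the cells carried either non-targeting siRNA (siNT) or siRNA that silences WWTR1, which encodes the Hippo pathway coactivator TAZ (siTAZ). They then had DMSO as vehicle or 1 µM erastin, an inhibitor of cystine uptake, for 7 hours. The 4 groups, siNT with vehicle, siNT with erastin, siTAZ with vehicle and siTAZ with erastin, had 3 expression arrays each, which the submitters call biological triplicates. All results are from this line alone, and the sources used here do not give the sequence or number of the siRNAs.

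Cytosolic HSP70 holds unfolded stretches of protein in a cycle driven by ATP. J-domain proteins such as DNAJB1 bring clients and start ATP hydrolysis, and nucleotide exchange factors such as BAG3 and HSPH1 release them, after which HSP90 with co-chaperones such as FKBP4 and CHORDC1 can mature selected clients. Small heat shock proteins bind unfolding proteins without ATP, and many of these genes are transcribed from heat shock elements, inverted repeats of nGAAn units bound by heat shock factors, of which HSF1 is the main one under stress.

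Promoter sequences of the members are shown because heat shock elements are what many genes of this kind are known for. Whether the motif bears on any change below was not tested. RefSeq promoters (GRCh38.p14, 250 bases before the annotated start were searched) matched 8 of the 10 genes with 11 promoters. CRYAB and FKBP4 had no promoter entry and were not searched. The motifs searched were the pairs of inverted units GAANNTTC and TTCNNGAA, each of which reads the same on both strands, and the 3-unit forms, in which a further inverted unit follows a pair after 2 more bases, so that both pairs overlap. A pair was present in 6 of the 11 promoters, from 6 genes, and in 11.6% of all 35116 promoters of the same length. The 3-unit form was present in 3 of the 11, those of CHORDC1, HSPA8 and HSP90AA1, and in 0.441% of all promoters. The members are known heat shock genes, so these shares are no independent finding. These letters were not in the windows of HSPH1 and BAG3. A match is a run of letters and not a measured binding site. For CHORDC1 and HSPA8 the stretch nearest the start is shown. Capitals mark the matched motifs, and each sequence reads 5′ to 3′ on the strand of the gene.
DNAJB1, chr19:14518425-14518486, minus strand, 89 to 28 bases before the start: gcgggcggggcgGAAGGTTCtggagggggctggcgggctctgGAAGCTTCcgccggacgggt
HSPB1, chr7:76302479-76302510, plus strand, 194 to 163 bases before the start: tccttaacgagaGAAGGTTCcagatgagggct
HSPA1A, chr6:31815425-31815456, plus strand, 118 to 87 bases before the start: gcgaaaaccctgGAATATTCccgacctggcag
CHORDC1, chr11:90223053-90223121, minus strand, 72 to 4 bases before the start: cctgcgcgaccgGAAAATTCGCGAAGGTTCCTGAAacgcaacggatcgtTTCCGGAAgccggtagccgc
HSP90AA1, chr14:102087093-102087144, minus strand, 100 to 49 bases before the start: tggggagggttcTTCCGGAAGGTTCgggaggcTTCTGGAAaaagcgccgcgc
HSPA8, chr11:123062167-123062203, minus strand, 67 to 31 bases before the start: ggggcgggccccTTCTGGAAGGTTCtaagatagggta

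Signals are log2 probe set values. Array medians lay between 6.48 and 6.54, and arrays of one group correlated at 0.9955 to 0.9985. The silencing was visible in WWTR1, which had 13.0% of its siNT signal left in vehicle and 11.5% under erastin. The labelled cell type was checked with 12 renal markers, of which 10 were measured, with group means from 5.79 for MME to 13.59 for VIM. Leukocyte (8 of 10 measured), endothelial (6 of 6) and erythroid (2 of 4) markers had group means between 2.60 and 6.46, and fibroblast markers (6 of 6) reached 7.48 for COL1A1. The actin 3′ minus 5′ control signal, which rises as RNA degrades, averaged 2.68 ± 0.28 (SD, n = 3) in siNT vehicle, 2.65 ± 0.04 in siTAZ vehicle, 2.26 ± 0.69 in siNT erastin and 3.25 ± 0.33 in siTAZ erastin. The array siNT erastin replicate 3 was the lowest, at 1.49.

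The first comparison asks how these genes respond to silencing of WWTR1 in vehicle. DNAJB1, BAG3, CRYAB and HSPB1 rose, FKBP4 fell, and HSPH1, HSP90AA1 and CHORDC1 did not pass the test. The rises were between 1.25-fold and 1.58-fold, and FKBP4 fell to 63.1% of its siNT signal. These 5 calls among 8 genes stand beside 28.6% called over all 11963 genes, 14.7% higher and 13.9% lower. By mean signal the members ranked from percentile 63.2 (FKBP4) to 99.3 (HSP90AA1) of all genes. The shares over all genes include dimmer genes, and a share for genes of like signal was not computed. The members were also chosen with earlier results of these data known, so their share is no independent finding. In 6 of the 8 the 3 arrays of one group all lay above the 3 of the other, which was so for 43.8% of all genes. The median log2 difference was 0.23 for the members and −0.01 for all genes.

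**Figure D1:**
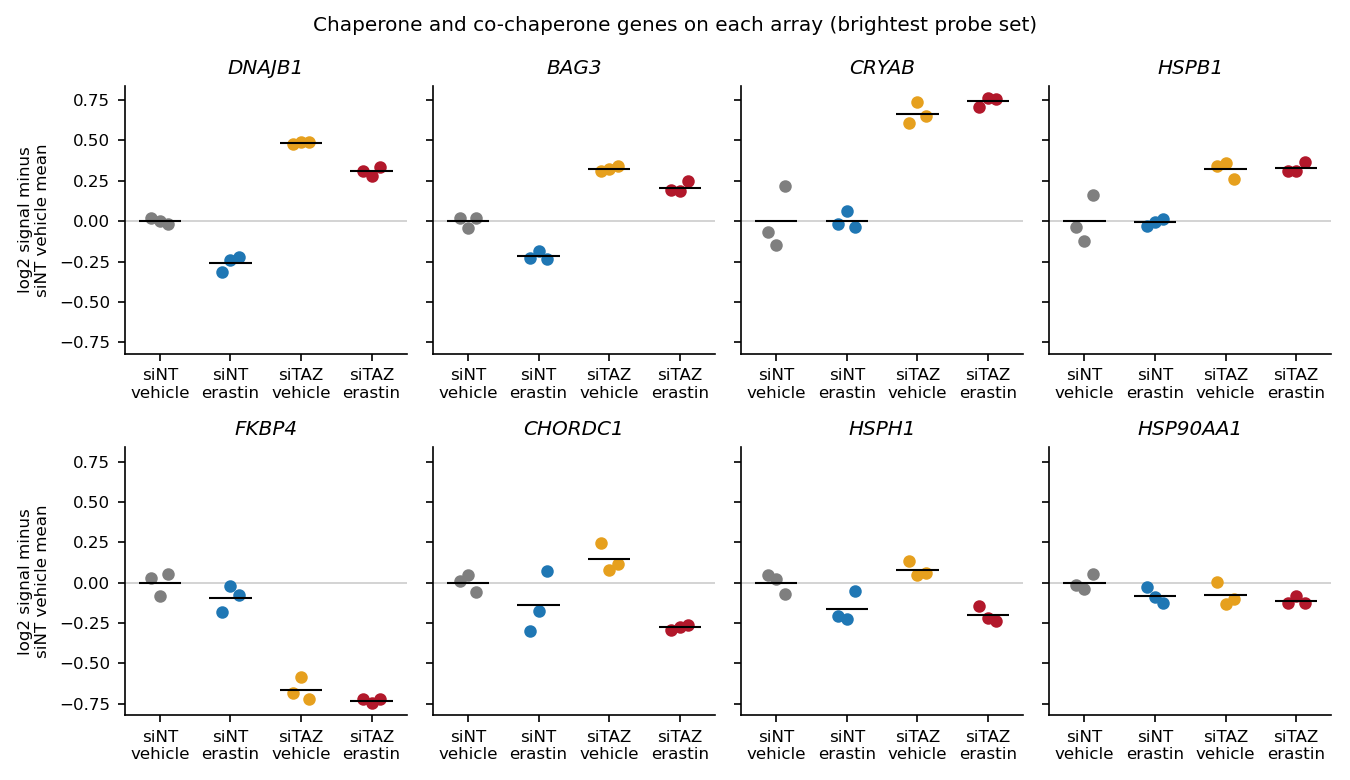
Log2 signal of the 8 genes with a single-gene probe set on each of the 12 arrays, minus the siNT vehicle mean of the gene; points are arrays and black lines group means (n = 3). DNAJB1, BAG3, CRYAB and HSPB1 sit higher and FKBP4 lower on every siTAZ array than on any siNT array, whereas CHORDC1 and HSPH1 have their lowest group mean in siTAZ erastin.

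Within the HSP70 machine, the J-domain protein DNAJB1 had log2 signals of 9.53, 9.51 and 9.50 on the siNT vehicle arrays and 9.99, 10.01 and 10.01 on the siTAZ vehicle arrays. The siTAZ arrays were all higher, and the gap was far wider than the spread within either group. The log2 difference was 0.49 ± 0.05 (SE, n = 3 arrays per group), or 1.40-fold, with a limma Benjamini-Hochberg adjusted p of 8.79e-06. A second DNAJB1 probe set rose by 0.54 ± 0.11 (adjusted p = 0.00224 over all single-gene probe sets). In bulk RNA, a change in the number of cells with a transcript and a change in its amount per cell cannot be told apart.

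BAG3, which links HSP70 to autophagy, had signals of 10.45, 10.38 and 10.45 in siNT and 10.74, 10.75 and 10.77 in siTAZ. The groups did not overlap, and the rise was 0.33 ± 0.05, or 1.25-fold (limma adjusted p = 0.000206). HSPH1, an HSP110 that acts as an exchange factor, had signals of 11.15, 11.12 and 11.03 in siNT and of 11.23, 11.15 and 11.15 in siTAZ. These lay close together, with a difference of 0.08 ± 0.06 (95% interval −0.05 to 0.21) that did not pass the test (adjusted p = 0.404). Its second probe set gave 0.12 ± 0.09 (adjusted p = 0.386).

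The probe sets that list HSPA1A and HSPA1B, the near-identical stress-inducible HSP70 genes, were higher too. Probe set 200800_s_at, which also lists HSPA1L, read 10.07, 9.86 and 9.83 in siNT and 10.25, 10.20 and 10.23 in siTAZ. The groups did not overlap and the rise was 0.31 ± 0.07 (limma adjusted p = 0.00676 over all 22215 non-control probe sets). Probe set 202581_at rose by 0.36 ± 0.10 (adjusted p = 0.0196) and 200799_at by 0.22 ± 0.07 (adjusted p = 0.0382), so all 3 rose, beside 11.6% called higher of the probe sets in that fit. The 200799_at call was lost in 7 of 13 alternatives, among them without siNT vehicle replicate 2 or 3 or any siTAZ vehicle array (0.19 to 0.23), and the 202581_at call needed each of siNT vehicle replicate 3 and siTAZ vehicle replicates 1 and 2 (0.29 to 0.35 without one of them). A probe set of HSPA1L alone gave −0.10 ± 0.12 (adjusted p = 0.631). The 3 probe sets that list HSPA8, the constitutive HSP70, with SNORD14C and SNORD14D gave differences of −0.02, 0.00 and 0.02, and none was called.

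Of HSP90AA1 and its partners among the members, FKBP4 was called, and HSP90AA1 and CHORDC1 were not. FKBP4 encodes FKBP52, an immunophilin that helps HSP90 mature steroid receptors. Its signals were 8.710, 8.603 and 8.737 in siNT and 7.997, 8.097 and 7.960 in siTAZ, so every siTAZ array was lower by more than the spread within groups. The log2 difference was −0.67 ± 0.06 (limma adjusted p = 6.22e-06), and the second FKBP4 probe set fell by 0.38 ± 0.06 on the log2 scale (adjusted p = 0.000427).

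HSP90AA1 encodes the inducible HSP90 alpha. It read 13.17, 13.15 and 13.24 in siNT and 13.19, 13.05 and 13.09 in siTAZ. The values overlapped, and the difference of −0.08 ± 0.05 (95% interval −0.19 to 0.04) did not pass the test (adjusted p = 0.371). Its 4 probe sets gave −0.08 to −0.06. CHORDC1, also known as morgana, binds HSP90 through a CHORD and a CS domain. Its signals of 8.95, 8.78 and 8.82 in siTAZ all lay above the 8.71, 8.75 and 8.65 of siNT, but the difference of 0.15 ± 0.08 was not called (adjusted p = 0.237).

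Both small heat shock proteins rose. CRYAB, alpha-B-crystallin, had the largest rise of the members, with signals of 10.41, 10.32 and 10.69 in siNT and 11.08, 11.21 and 11.12 in siTAZ. The siNT arrays were more spread, with replicate 3 highest, yet the groups stayed apart. The rise was 0.66 ± 0.08, or 1.58-fold (limma adjusted p = 7.08e-05). HSPB1, or HSP27, read 12.27, 12.18 and 12.46 in siNT, again with replicate 3 highest, and 12.65, 12.67 and 12.57 in siTAZ. It rose by 0.32 ± 0.07, or 1.25-fold (adjusted p = 0.0032).

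Over all 14 single-gene probe sets of the members, 5 rose and 2 fell in this comparison, beside 24.3% of all single-gene probe sets called, 12.6% higher and 11.7% lower. Probe sets of 1 gene that were both called had the same direction, for DNAJB1 and for FKBP4. An exact permutation test of 1 gene cannot reach a p under 0.1 in groups of 3, so each p here is that of the limma fit. It sets the difference of group means against the spread between arrays within the 4 groups, moderated over all genes.

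**Figure D2:**
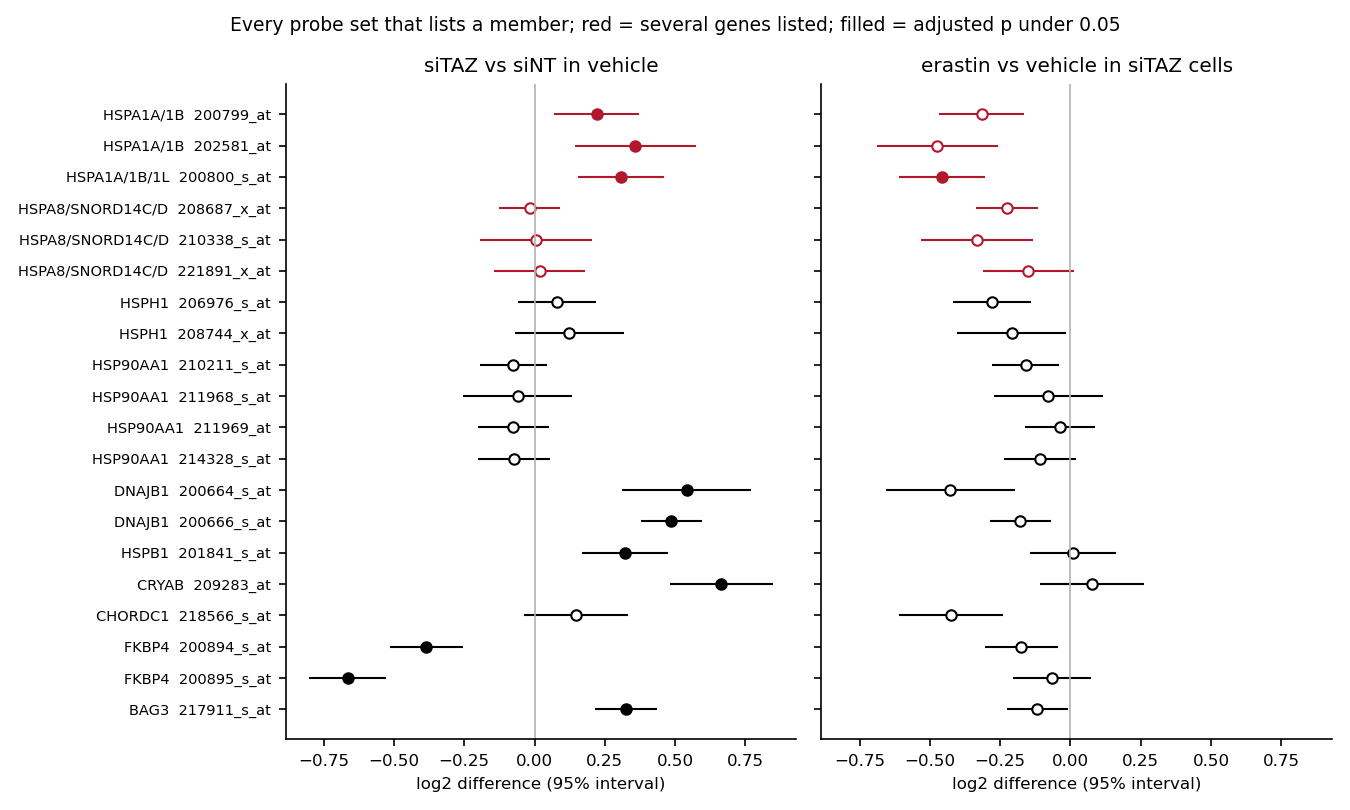
Log2 difference with its 95% interval for each of the 20 probe sets that list a member, for siTAZ minus siNT in vehicle (left) and erastin minus vehicle in siTAZ cells (right); red marks probe sets listed for several genes and filled points an adjusted p under 0.05. On the left the HSPA1A, DNAJB1, CRYAB, HSPB1 and BAG3 probe sets lie to the right of 0 and the FKBP4 ones to the left, and on the right most lie to the left of 0 with 1 filled point.

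The next comparison repeats silencing of WWTR1 under erastin. Its group means come from other arrays than the group means of the first. Both comparisons take the spread between arrays from the same fit over all groups, so their adjusted p values are not independent. The same 5 genes were called in the same directions, DNAJB1, BAG3, CRYAB and HSPB1 upward and FKBP4 downward. The rises were between 1.26-fold and 1.67-fold, and FKBP4 kept 64.3% of its siNT signal. Over all genes 28.2% were called, 15.6% higher and 12.6% lower. The groups did not overlap for 5 of the 8, beside 38.8% of all genes, and the medians were 0.15 for the members and 0.01 for all genes.

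DNAJB1 read 9.20, 9.28 and 9.30 on siNT erastin arrays and 9.83, 9.80 and 9.85 on siTAZ erastin arrays, a rise of 0.57 ± 0.05 (limma adjusted p = 2.73e-06). BAG3 read 10.20, 10.24 and 10.19 against 10.62, 10.61 and 10.67, a rise of 0.42 ± 0.05 (adjusted p = 2.82e-05). Neither gene's groups overlapped. The second DNAJB1 probe set gave 0.23 ± 0.11 and was not called (adjusted p = 0.142). Its signal on siNT erastin replicate 3 was 8.62, beside 8.16 and 8.27 on the other arrays of that group, and without replicate 3 it rose by 0.37 (adjusted p = 0.0062).

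CRYAB read 10.46, 10.54 and 10.43 in siNT and 11.18, 11.24 and 11.23 in siTAZ, a rise of 0.74 ± 0.08 (limma adjusted p = 3.19e-05). HSPB1 read 12.27, 12.30 and 12.32 against 12.62, 12.62 and 12.67, a rise of 0.34 ± 0.07 (adjusted p = 0.00251). FKBP4 read 8.50, 8.66 and 8.61 against 7.96, 7.94 and 7.96, a difference of −0.64 ± 0.06 (adjusted p = 9.14e-06). All 3 genes were clearly apart between the groups. The second FKBP4 probe set fell by 0.55 ± 0.06 on the log2 scale (adjusted p = 3.11e-05).

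The genes that were not called in vehicle were not called here either. HSPH1 differed by −0.04 ± 0.06, HSP90AA1 by −0.03 ± 0.05 and CHORDC1 by −0.14 ± 0.08 (adjusted p = 0.724, 0.751 and 0.254). With the actin signal as a covariate HSPH1 was at 0.09 and CHORDC1 at 0.07, so their signs are not settled. The HSP90AA1 probe set 210211_s_at, at −0.16 ± 0.05, just missed the test (adjusted p = 0.0553). Of the HSPA1A and HSPA1B probe sets, 200800_s_at rose by 0.21 ± 0.07 (adjusted p = 0.0487), beside 12.1% of non-control probe sets called higher. This call was lost in 9 alternatives, among them without any one compared array other than siNT erastin replicate 1 (0.18 to 0.23). The others gave 0.14 and 0.20 (adjusted p = 0.189 and 0.188). Those that list HSPA8 gave −0.10, −0.24 and −0.07 and were not called. Over the 14 single-gene probe sets 4 rose and 2 fell, beside 24.6% called of all, 13.1% higher and 11.5% lower. The actin signal did not overlap between these groups, so a fit with it as a covariate cannot separate it from silencing. In that fit the same number of members, 5, was called.

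**Figure D3:**
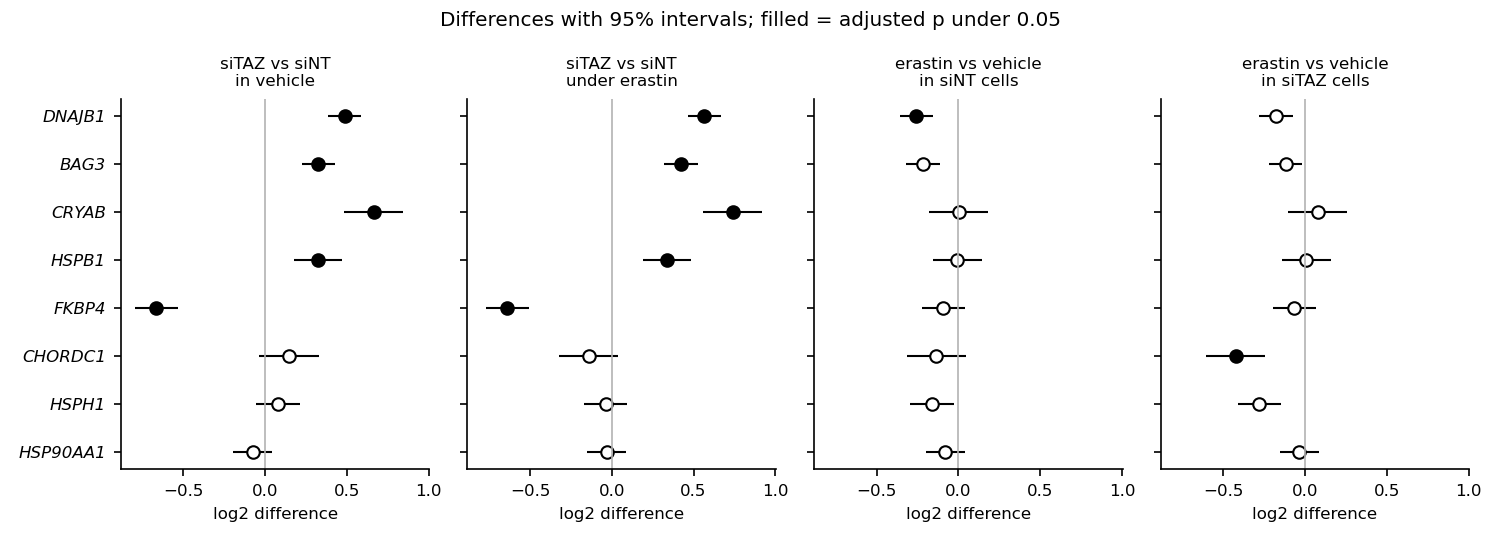
Log2 difference with its 95% interval for the 8 genes in the 4 pairwise comparisons (n = 3 arrays per group); filled points have a limma adjusted p under 0.05. Both siTAZ panels show DNAJB1, BAG3, CRYAB and HSPB1 to the right of 0 and FKBP4 to the left, and in the erastin panels DNAJB1 in siNT cells and CHORDC1 in siTAZ cells are the only filled points.

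Erastin in siNT cells changed little in this group of genes, and what changed was lower. DNAJB1 fell by 0.26 ± 0.05 on the log2 scale, to 83.6% of its vehicle signal (limma adjusted p = 0.0275), from 9.53, 9.51 and 9.50 in vehicle to 9.20, 9.28 and 9.30 under erastin. The groups did not overlap. It was the only call among the 8 genes. Of all genes 0.802% were called in either direction, and 0.276% of all genes were called lower. The call was lost in 8 of 15 alternatives, with adjusted p from 0.00241 to 0.36. These include the replicate block (adjusted p = 0.0877), and leaving out any one of the siNT vehicle arrays or siNT erastin replicate 1 or 2. The difference itself stayed between −0.30 and −0.19.

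BAG3 read 10.20, 10.24 and 10.19 under erastin and 10.45, 10.38 and 10.45 in vehicle. Here too all erastin arrays were lower, but the difference of −0.22 ± 0.05 missed the test (limma adjusted p = 0.0647). DNAJB1 and BAG3 were the 2 of 8 genes whose groups lay apart, both lower, which was so for 8.52% of all genes. HSPH1 differed by −0.16 ± 0.06, CHORDC1 by −0.14 ± 0.08, FKBP4 by −0.09 ± 0.06 and HSP90AA1 by −0.08 ± 0.05, none of them called (adjusted p = 0.357 to 0.695). The small heat shock proteins were at 0.00 ± 0.08 for CRYAB and −0.01 ± 0.07 for HSPB1, with 95% intervals of −0.18 to 0.18 and −0.15 to 0.14. The members' median was −0.11, that of all genes −0.00346.

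The second DNAJB1 probe set gave −0.12 ± 0.11 with overlapping groups (adjusted p = 0.833). In the fit over single-gene probe sets the first DNAJB1 probe set missed the test (adjusted p = 0.0563), so that 0 of 14 were called, while 3 had an unadjusted p under 0.05 in limma. Of all single-gene probe sets 0.372% were called and 8.82% had such a p. The HSPA1A and HSPA1B probe sets gave −0.24, −0.36 and −0.32, none of them called (adjusted p = 0.0675 to 0.35), beside 0.279% of non-control probe sets. For 200800_s_at, also listed for HSPA1L, the erastin arrays at 9.65, 9.52 and 9.50 were all under the vehicle arrays at 10.07, 9.86 and 9.83. Those that list HSPA8 gave −0.14, −0.09 and −0.06 and were not called. With trend and robust variances 200799_at, 200800_s_at and the HSPA8 probe set 208687_x_at were called lower (limma adjusted p = 0.0492, 0.00431 and 0.0492). With array weights 200800_s_at and 202581_at were (0.0227 and 0.0218).

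In siTAZ cells the gene called under erastin was another one. CHORDC1 fell from 8.95, 8.78 and 8.82 in vehicle to 8.41, 8.43 and 8.44 under erastin, by 0.42 ± 0.08 on the log2 scale or to 74.5% (limma adjusted p = 0.0494). The erastin arrays were all lower and nearly equal. Over all genes 0.56% were called, 0.1% lower. The adjusted p lay next to the threshold, and the call was lost in 8 of 15 alternatives: without any one of the 6 arrays compared, with the replicate block (0.13) and with the actin covariate (−0.30, adjusted p = 0.168).

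Other members were lower without a call. HSPH1 read 11.23, 11.15 and 11.15 in vehicle and 10.96, 10.88 and 10.86 under erastin, −0.28 ± 0.06 (limma adjusted p = 0.0902). DNAJB1 read 9.99, 10.01 and 10.01 in vehicle and 9.83, 9.80 and 9.85 under erastin, −0.18 ± 0.05 (adjusted p = 0.168), and BAG3 differed by −0.12 ± 0.05 (adjusted p = 0.437). In these 3 and in CHORDC1 the erastin arrays all lay under the vehicle arrays, so 4 of 8 genes, beside 9.81% of all genes. CRYAB, HSPB1, FKBP4 and HSP90AA1 differed by 0.08, 0.01, −0.07 and −0.04. The members' median was −0.09, that of all genes 0.01.

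By probe set, 8 of 14 in siTAZ cells had groups apart, all lower, beside 9.68% of all single-gene probe sets. Several of the 14 belong to 1 gene, 4 of them to HSP90AA1. None of the 14 was called in limma, whereas 8 had an unadjusted p under 0.05. Of all single-gene probe sets 0.294% were called and 9.04% had such a p. The second DNAJB1 probe set read 9.08, 8.98 and 8.97 in vehicle and 8.57, 8.45 and 8.72 under erastin, −0.43 ± 0.11 (adjusted p = 0.182). All 6 probe sets of several genes were lower. Of those for HSPA1A and HSPA1B, 200800_s_at, also listed for HSPA1L, went from 10.25, 10.20 and 10.23 to 9.80, 9.73 and 9.79 and fell by 0.46 ± 0.07 on the log2 scale, to 72.9% (adjusted p = 0.016). It was the only call of the 6, beside 0.261% of all non-control probe sets (0.0315% lower), and was lost without any one of the 6 arrays compared or with the actin covariate (adjusted p = 0.0742). The others, 200799_at and 202581_at, gave −0.32 and −0.47 (adjusted p = 0.13 and 0.0988), and those that list HSPA8 gave −0.23, −0.33 and −0.15 (adjusted p = 0.135 to 0.585). Some alternatives added calls, all lower. With trend and robust variances 200799_at, 202581_at and the HSPA8 probe set 208687_x_at were called (limma adjusted p = 0.0059, 0.00832 and 0.00112). The same probe sets were called with array weights (0.0319, 0.0143 and 0.0319), and 202581_at with only the compared groups (0.0487).

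The erastin arrays of siTAZ cells had the highest actin signals, between 3.01 and 3.63. A fit with the actin covariate thus cannot separate erastin in these cells from the actin signal. In siNT cells the array with the lowest actin signal, replicate 3 of erastin, had the highest CHORDC1 signal of its group, 8.77 beside 8.40 and 8.53. The same array was highest of its group for HSPH1, DNAJB1 and HSPB1 too, on their brightest probe sets, but not for FKBP4, CRYAB, BAG3 and HSP90AA1. Without that array the CHORDC1 difference in siNT cells was −0.24 in place of −0.14, still not called (adjusted p = 0.155), and DNAJB1 kept its fall (−0.28, adjusted p = 0.0429).

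Whether erastin acted differently in siTAZ and siNT cells was tested as an interaction. None of the members was called, and none of the 11963 genes was (limma), while 764 genes, or 6.39%, had an unadjusted p under 0.05. CHORDC1 was the one member among those, with −0.29 ± 0.12 (95% interval −0.55 to −0.03, adjusted p = 0.77). It was −0.08 with the actin covariate and −0.19 without siNT erastin replicate 3. The intervals were −0.06 to 0.22 for DNAJB1, −0.05 to 0.24 for BAG3, −0.31 to 0.07 for HSPH1 and −0.18 to 0.33 for CRYAB, so differences of that size between the erastin effects could not be told from 0 with these arrays. The second DNAJB1 probe set gave −0.31 ± 0.15 (95% interval −0.63 to 0.02), against 0.08 ± 0.07 for the first. It was not called either (limma adjusted p = 0.799 over all single-gene probe sets). The calls of DNAJB1 in siNT cells and of CHORDC1 in siTAZ cells are thus not shown to differ between the cells.

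Seen over the 4 groups, DNAJB1 and BAG3 had the same order: siTAZ vehicle highest, then siTAZ erastin, siNT vehicle and siNT erastin. On the brightest DNAJB1 probe set each step was wider than the spread of the arrays on either side, though the step between siTAZ vehicle and siTAZ erastin did not pass the test. The second DNAJB1 probe set had the same order of means. Its siNT vehicle arrays, at 8.43 to 8.51, overlapped both siTAZ erastin (8.45 to 8.72) and siNT erastin (8.16 to 8.62). CRYAB and HSPB1 fell into a higher siTAZ and a lower siNT level, and vehicle and erastin groups overlapped in both. FKBP4 ran the other way, with siNT vehicle highest and siTAZ erastin lowest. Each group enters a siTAZ and an erastin comparison, so these share arrays. CHORDC1 and HSPH1 were highest in siTAZ vehicle and lowest in siTAZ erastin, and their siNT groups lay between and overlapped. On the second HSPH1 probe set the lowest mean was that of siNT erastin, 9.26 beside 9.32 in siTAZ erastin. HSP90AA1 ranged only from 13.07 to 13.19 in its group means, and neighbouring groups overlapped.

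Beyond the members, lists of related genes were counted in the siTAZ comparison in vehicle. Of 6 small heat shock genes besides the members, HSPB2 and HSPB8 rose and 0 fell, beside 14.7% called higher and 13.9% lower of all genes. The other genes of that list were not called, and its median was −0.03. HSPB2 lies next to CRYAB on chromosome 11. It read 8.14, 8.12 and 8.26 in siNT vehicle and 9.05, 9.01 and 8.96 in siTAZ vehicle, 0.84 ± 0.06 higher (limma adjusted p = 4.86e-07), and 0.83 ± 0.06 higher under erastin (adjusted p = 5.35e-07). HSPB8, which works with BAG3, rose by 0.34 ± 0.06 and 0.33 ± 0.06 (adjusted p = 0.000531 and 0.000714). HSPB2 was set beside CRYAB after its values were seen. Erastin against vehicle called neither gene in siNT or siTAZ cells.

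**Figure D4:**
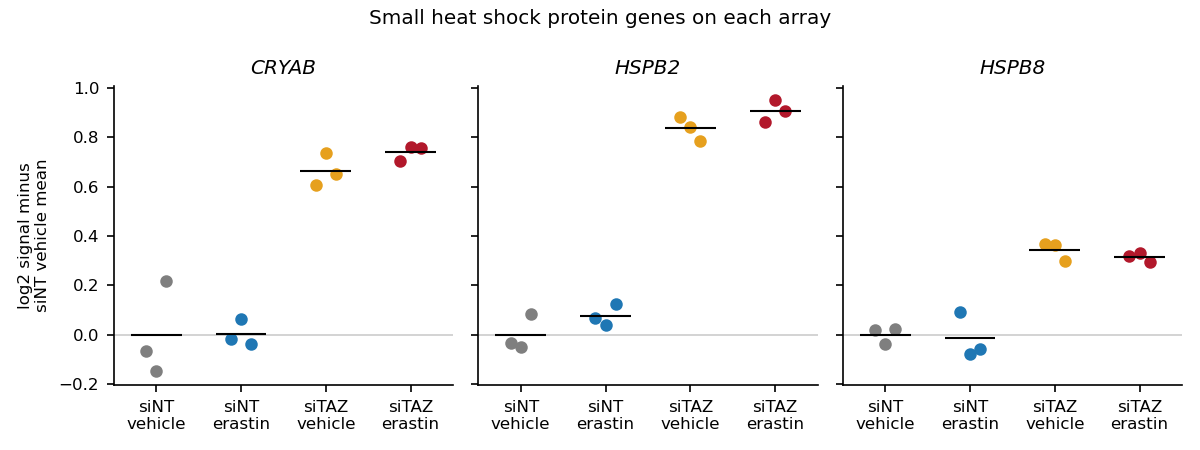
Log2 signal of CRYAB, its neighbour HSPB2 and HSPB8 on each of the 12 arrays, minus the siNT vehicle mean of each gene; points are arrays and lines group means. The siTAZ arrays of all 3 genes lie above every siNT array, and vehicle and erastin arrays differ little.

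Among 9 other HSP70 and HSP110 genes measured, 2 rose and 2 fell. HSPA12A, a distant HSP70 relative, rose by 0.82 ± 0.07 and HSPA2, a testis-enriched HSP70, by 0.64 ± 0.08. HSPA14 fell by 0.43 ± 0.06 on the log2 scale, and HSPA9, the mitochondrial HSP70, was at −0.16 ± 0.05, a call lost in 5 of 15 alternatives, 4 of them with a single array left out. A second HSPA12A probe set gave 0.04. HSPA2 read 6.71, 6.75 and 6.53 in siNT vehicle and 7.30, 7.33 and 7.28 in siTAZ vehicle. Under erastin in siNT cells it differed by −0.33 ± 0.08 (adjusted p = 0.0791).

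Of 9 regulators of the HSP70 cycle, ST13 rose and BAG5 and SGTA fell. ST13 encodes the HSP70-interacting protein Hip, which slows release of ADP from HSP70 and so acts against exchange factors. It read 10.97, 10.91 and 11.05 in siNT vehicle and 11.77, 11.74 and 11.81 in siTAZ vehicle, a rise of 0.80 ± 0.05 (limma adjusted p = 3.24e-07), with 0.68 and 0.83 on its other probe sets. BAG5 fell by 0.29 ± 0.07 (not called on the mean of its probe sets) and SGTA by 0.26 ± 0.05 on the log2 scale. Of 16 other J-domain genes 4 rose and 3 fell. DNAJC6, the clathrin-uncoating auxilin, rose by 1.14 ± 0.11 (−0.05 on its other probe set), DNAJC7 by 0.35 ± 0.08 (0.13 and not called on the mean of its probe sets), and DNAJA3 and DNAJB6 fell by 0.47 ± 0.05 and 0.40 ± 0.09 on the log2 scale.

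Of 3 other HSP90 genes, TRAP1 alone was called, at −0.16 ± 0.05, and HSP90AB1 and HSP90B1 gave −0.17 ± 0.06 and 0.05 ± 0.07 without a call (adjusted p = 0.0624 and 0.713). Of 13 other HSP90 co-chaperones 1 was called, PIH1D1, at −0.22 ± 0.07, so that FKBP4 had the widest change of the measured HSP90 co-chaperones. The calls of TRAP1 and PIH1D1 were each lost in 6 of 15 alternatives, 5 of them with a single array left out. The heat shock factor genes were not called: HSF1 differed by 0.07 ± 0.08 and HSF4 by −0.10 ± 0.06 (adjusted p = 0.594 and 0.271), with HSBP1, which binds heat shock factors, at 0.09 ± 0.06 (adjusted p = 0.318). Their RNA level does not measure their activity.

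These counts read against 13.9% of all genes called lower. Of 13 chaperonin and prefoldin genes 3 fell and 0 rose (PFDN2 at −0.25, CCT7 at −0.20 and CCT8 at −0.16), the calls of CCT7 and CCT8 being lost in 7 and 8 of 15 alternatives, 5 of them for each with a single array left out. Of 7 mitochondrial chaperone genes GRPEL1 (−0.47 ± 0.07) and HSPD1 (−0.28 ± 0.04) fell. Of 27 proteasome genes 2 fell, PSMD2 by 0.60 ± 0.06 and PSMD3 by 0.22 ± 0.07 on the log2 scale, the latter lost in 5 of 15 alternatives and at −0.13 without siNT vehicle replicate 3. Of 6 other genes known to rise with heat shock, GADD45B (−0.74 ± 0.06) and IER5 (−0.36 ± 0.05) fell while CLK1 and SERPINH1, the collagen chaperone HSP47, each rose by 0.26. The list medians ran from −0.16 for the HSP90 family to 0.08 for the other heat shock genes, beside 0.23 for the members and −0.01 for all genes.

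**Figure D5:**
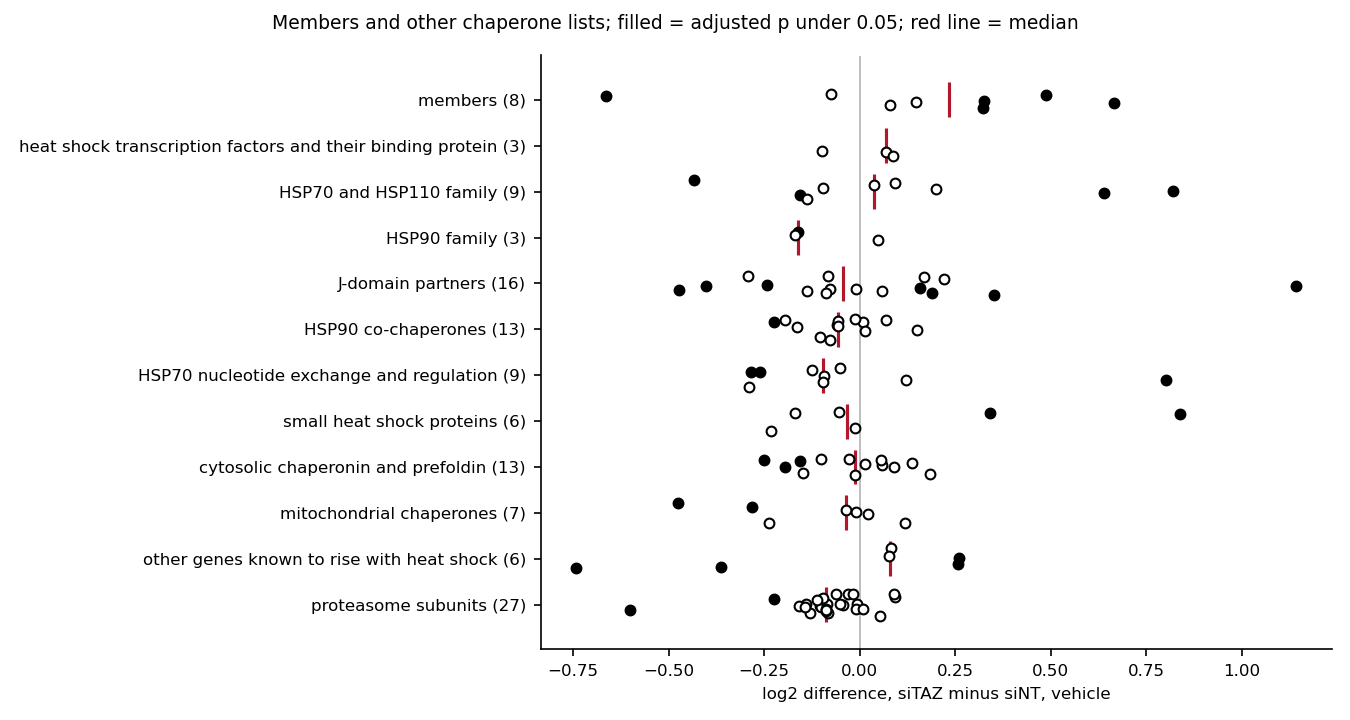
Log2 difference between siTAZ and siNT in vehicle for the 8 members and the measured genes of 11 other lists (number of genes in brackets, points spread vertically by chance); filled points have a limma adjusted p under 0.05 and red lines are list medians. The members include 4 filled points to the right of 0 and FKBP4 to the left, while most lists have calls in both directions or to the left only.

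Under erastin 15.6% of all genes were called higher and 12.6% lower between siTAZ and siNT. In the same lists there were 2 rises and 3 falls among 9 HSP70 genes and 3 and 5 among 16 J-domain genes. There were 1 and 1 among 9 HSP70 regulators, and 2 rises among 6 small heat shock genes. HSPA2 (0.76), HSPA12A (0.73), ST13 (0.83) and DNAJC6 (1.13) rose here too. The other probe sets of HSPA12A and DNAJC6 gave 0.26 and 0.0016 and were not called. The 13 HSP90 co-chaperones had 3 falls, the 3 HSP90 family genes 1, the 13 chaperonin and prefoldin genes 4 and the 27 proteasome genes 4, with no rises. The 7 mitochondrial chaperones had 1 rise and 3 falls and the 6 other heat shock genes 2 and 2. The 3 genes of the heat shock factor list had 1 rise, HSBP1 at 0.26 ± 0.06 (−0.06 on its other probe set). The actin signal was higher on every siTAZ erastin array (3.01 to 3.63) than on any siNT erastin array (1.49 to 2.82). A fit with it as a covariate thus cannot tell a change with silencing from one with the actin signal. With the actin covariate 18 of the 33 list genes with the largest called changes lost their call, among them HSP90AB1 (−0.27, and −0.12 with the covariate), CDC37 (−0.33 and −0.11) and CCT7 (−0.36 and −0.18). HSPA2, HSPA12A, ST13, DNAJC6, HSPB2 and HSPB8 kept theirs. Erastin itself called 2 list genes in siNT cells, IER5 (−0.31 ± 0.05) and JMJD6 (−0.31 ± 0.06), both from the other heat shock genes, and 0 in siTAZ cells. The shares called over all genes were 0.802% in siNT cells and 0.56% in siTAZ cells. The JMJD6 call was lost without any one of the 6 arrays compared, and the IER5 call without siNT vehicle replicate 1 or 3 or siNT erastin replicate 1 (−0.31 to −0.30).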

How the data were processed

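The deposited values are log2 probe set signals. Per the submitters' processing notes, RMA in the Affymetrix Expression Console gave them; the sources used here name neither versions nor a genome build. The series text also mentions a transformation against the siNT arrays, which these values do not show. Left out of the 22277 probe sets were 62 controls, 1043 that list several genes and 2108 that list none. The 19064 others covered 11963 genes, each represented by its brightest probe set. All 12 arrays entered 1 fit with 4 group means in limma 3.58.1 (R 4.3.3), with calls at an adjusted p under 0.05 (Benjamini-Hochberg, within each comparison, over every gene). The same fit was run on the 19064 single-gene probe sets and, added after the data were seen, on all 22215 non-control probe sets for the 6 that list several genes. The number of arrays limits the precision. The steps were tested on simulated data.

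The members and gene lists were chosen with earlier results of these data known. Named were all members, WWTR1, each heat shock factor, and up to 4 genes with the largest called change per list and comparison; the remaining genes belong to counts of at most 5 or were chosen after their values were seen. The alternatives were median centring, a second quantile normalisation, leaving out genes under the 25th percentile, the mean of probe sets, trend and robust variances, array weights, only the compared groups, the replicate number as a block, the actin signal as a covariate, a minimum fold of 1.2 and leaving out single arrays.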

Additional observations from a re-analysis of the deposited data

How the results depend on the processing

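For both siTAZ comparisons 5 members were called under all 16 alternatives, and in vehicle all 8 genes kept their direction and call in the 15 that refit single genes. For the interaction 0 members were called under all 21 alternatives. The erastin counts were less stable. In siNT cells 1 member was called, and 2 with the second quantile normalisation, without genes under the 25th percentile or with trend and robust variances, 3 with array weights, and 0 with the mean of probe sets, only the compared groups, the minimum fold of 1.2 or the replicate block, and 0 to 1 without single arrays. In siTAZ cells the 1 call became 2 without genes under the 25th percentile, with trend and robust variances or with array weights, 0 with the replicate block or the actin covariate, and 0 whichever single array was left out. Over single-gene probe sets, 0 were called in siNT cells, 1 with median centring, the second quantile normalisation or the actin covariate, and 2 with trend and robust variances or array weights; in siTAZ cells 0, 1 with the second quantile normalisation and 3 with trend and robust variances or array weights. The cause of these shifts was not tested. The gain of a call by BAG3 or HSPH1 under erastin was in the same direction as their reported differences.

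The replicate number was tried as a block although the labels do not say that it pairs samples. Correlations of same-numbered deviations lay between −0.417 and 0.356, so the numbers were not taken as pairs. With the replicate block 5 and 5 members were called for siTAZ and 0 and 0 for erastin, and over all genes 39 in place of 96 were called for erastin in siNT cells and 34 in place of 67 in siTAZ cells. Other settings moved these counts between 15 and 324 in siNT cells and between 30 and 166 in siTAZ cells, and the interaction between 0 and 10.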

Other observations

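The genes whose signals over the 12 arrays were most like those of each member are given as a description. The arrays fall into the 4 groups, so these correlations, searched over 11963 genes, hold group and array differences together, and arrays of a group share cells and preparation. DNAJB1 was nearest to BAG3 (Pearson r = 0.991), HSPA2 (0.987) and CCND3 (0.984), so that the J-domain protein and the exchange factor of HSP70 were each other's nearest gene on these arrays. BAG3 was next to TOR3A and SYNJ2 (0.978 each). CHORDC1 and HSPH1 were both nearest to the chemokine gene CXCL6 (0.970 and 0.961) and had r = 0.929 with each other. TNFRSF9 (0.939) followed for CHORDC1 and HBEGF (0.922) for HSPH1.

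The small heat shock proteins CRYAB and HSPB1 had r = 0.978 with each other. CRYAB was nearest to MLF1 (0.990), NDUFB2 (0.990) and TP53I3 (0.987), and HSPB1 to CD99 (0.988), PDZK1IP1 (0.986) and NAGK (0.982). FKBP4, which ran opposite to CRYAB (r = −0.929), was nearest to RANBP1 (0.991), TIMM17A (0.989) and RCHY1 (0.986). HSP90AA1, whose groups hardly differed, was nearest to NDUFAF4 (0.963), BASP1 (0.920) and RIN1 (0.892), and its r with DNAJB1 was −0.255.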
